A study of Mus musculus with 6 samples.

Results

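AP-1 is a family of dimeric transcription factors built from FOS proteins and JUN proteins, and the small MAF proteins are related leucine zipper factors. The 10 genes described here were Fos, Fosb, Fosl1, Fosl2, Jun, Junb, Jund, Maff, Mafk and Mafg, taken by symbol from the 23406 named gene rows of the deposited tables. All 10 passed the filter on low values, at least 1 FPKM in at least 2 libraries, as did 12266 genes in all. FPKM scales a gene's fragments to transcript length and library size, so that levels can be compared between genes.

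The 6 libraries were made from total RNA of mouse embryonic fibroblasts carrying OSKM, the reprogramming factors Oct4, Sox2, Klf4 and c-Myc, and all were taken at reprogramming day 7. The groups differed in 2 factors: the alleles of Adar1, which encodes an adenosine-to-inosine RNA editing enzyme, and treatment with vehicle or 4OHT (4-hydroxytamoxifen, commonly used to activate a Cre recombinase). WT was Adar1 Fl/Fl with vehicle (2 libraries) and KO was Adar1 Fl/Fl with 4OHT (2 libraries). HET was Adar1 Fl/E861A with vehicle (1 library) and MUT was Adar1 Fl/E861A with 4OHT (1 library). The E861A allele encodes an enzyme that cannot edit RNA. The title of the study asks about the role of this editing in reprogramming, so KO against WT addresses loss of the enzyme and MUT against HET addresses loss of the allele that can edit. The labels name no Cre driver and no deleted exons, and no group received 4OHT with both working alleles kept, and so what 4OHT or a Cre does by itself cannot be told apart from the effect of the allele. Whether the replicates are separate cultures is not stated in the labels, and every p-value below rests on the spread of these libraries alone, which may be technical.

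FOS proteins cannot pair with each other and bind DNA as heterodimers with JUN proteins, whereas JUN proteins can also pair among themselves. Fos, Fosb, Jun and Junb are classic immediate early genes, switched on within minutes by growth factors and stress. Fosl1 and Fosl2 encode FRA1 and FRA2, which lack the strong activation domain of FOS and usually appear later and last longer. The small MAF proteins have no activation domain, and act as activators or repressors according to their partner, such as NRF2 or BACH1. In fibroblasts AP-1 holds open many enhancers of the somatic programme, and these enhancers are closed during reprogramming.

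Most of these genes are small. On GRCm38 with the GENCODE annotation, Fos lies on chromosome 12 from 85473890 to 85477273, Fosb on chromosome 7 from 19302696 to 19310051, Fosl1 on chromosome 19 from 5447547 to 5455946 and Fosl2 on chromosome 5 from 32135801 to 32157842. Jun is on chromosome 4 from 95049034 to 95052222, Junb on chromosome 8 from 84974484 to 84978718 and Jund on chromosome 8 from 70698949 to 70700616. Maff is on chromosome 15 from 79346621 to 79359076, Mafk on chromosome 5 from 139791513 to 139802653 and Mafg on chromosome 11 from 120625117 to 120633600. Fos, Fosb, Fosl2 and Maff overlap no other annotated gene. Fosl1 overlaps Ccdc85b, Jun overlaps the antisense gene Junos, Junb overlaps Prdx2, Jund overlaps the antisense gene Gm11175 and Mafk overlaps Tmem184a, all on the opposite strand, and Mafg overlaps Sirt7 on its own strand. Without a stated use of strand, reads of these pairs cannot be told apart.

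The DNA just upstream of 3 of these genes is shown because Fos and Jun are textbook AP-1 and CREB targets, and because the members moved in different directions. The letters come from RefSeq promoter windows on GRCm38.p6, which run from 250 bases before to 50 bases after a start site. Of the 10 genes, 9 had a window, and Fosl1 had none. Each line gives the 120 bases before an annotated start, read 5′ to 3′ on the gene's strand, with a match to a searched motif in capitals: TGACGT, the core of the cAMP response element, in Fos; TGACATCA, the AP-1 site type known from Jun, in Jun and at one Maff start; and TGACGTCA, the full cAMP response element, at another Maff start.
Fos, chr12:85473770-85473889, plus strand: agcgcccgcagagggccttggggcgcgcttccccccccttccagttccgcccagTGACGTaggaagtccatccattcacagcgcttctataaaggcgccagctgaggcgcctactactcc
Jun, chr4:95052223-95052342, minus strand: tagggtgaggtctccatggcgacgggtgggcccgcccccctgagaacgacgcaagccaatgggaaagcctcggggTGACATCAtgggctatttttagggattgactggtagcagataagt
Maff, chr15:79347400-79347519, plus strand: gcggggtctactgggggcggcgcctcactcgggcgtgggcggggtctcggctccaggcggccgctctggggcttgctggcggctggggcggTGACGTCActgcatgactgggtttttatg
Maff, chr15:79348282-79348401, plus strand: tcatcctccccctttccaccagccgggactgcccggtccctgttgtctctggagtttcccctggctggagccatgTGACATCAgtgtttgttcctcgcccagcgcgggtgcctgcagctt
The match began 66 bases before the start of Fos and 45 bases before that of Jun. At Maff the full element began 29 bases before one start, and the Jun-type site 45 bases before another.

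Across all 32851 mouse promoter windows, searched on both strands, TGACGTCA was present in 1.79%, TGACGT in 7.51% and TGACATCA in 3.62%. The shorter TGACGT lies inside every TGACGTCA, so these matches overlap. TGACGT was also found at Mafg. The consensus AP-1 site TGANTCA was in 7.81% of windows and in none of the 9 genes' windows, and the serum response factor site known as the CArG box was in 1.63% and in none of them. Sites more than 250 bases before a start were not searched, so a site missing here may lie further upstream. TGACNNNGC, the core of the antioxidant response element bound by small MAF with NRF2, was in 12.4% of windows and in those of Maff, Mafk and Mafg. The amino acid response core TGATGNAA was in 3.97% of windows and in none of the 9. A match describes letters only, and none of these libraries measured binding.

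The libraries agreed closely within groups, and their estimated depth differed between groups. Depth is not stated, and estimates from the smallest steps of FPKM at an assumed fragment length of 200 bases ran from 16000000 to 21100000 fragments. They were 17200000 and 19500000 in WT, 21100000 and 21000000 in KO, 16400000 in HET and 16000000 in MUT. Pearson's r across genes, which are not independent replicates, was 0.995 for the WT pair and 0.995 for the KO pair, and 12 and 16 genes differed at least 2-fold within these pairs. Adar was listed at 19.5 and 19.6 FPKM in WT, 31.3 and 34.2 in KO, 17.0 in HET and 33.0 in MUT. This whole-gene value rose where the labels imply a deletion, and since the deleted part is not given, it does not check the labels.

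In KO the FOS family changed its make-up. Fos fell 4.70-fold and Fosb 7.03-fold, Fosl1 rose 3.68-fold and Fosl2 3.17-fold, and the small MAF genes Maff and Mafk rose 2.54-fold and 2.99-fold, while the JUN genes moved little. Folds of single genes are ratios of FPKM, whereas log2 differences are taken on log2(FPKM + 1), so the log2 difference of a gene need not match its fold exactly. Of the 10 genes, 6 were higher in KO, 2 were lower and 2 were not called (limma on log2(FPKM + 1), adjusted p under 0.05). Calls were frequent everywhere: 57.7% of all tested genes were called, 29.5% higher and 28.2% lower, so a count of 8 in 10 says little by itself. Changes of at least 2-fold, a log2 difference of at least 1, were rarer at 14.1% of genes, 4.68% higher and 9.39% lower, and 6 of the 10 genes passed it, 4 higher and 2 lower. In bulk RNA, fewer cells of a type and less RNA per cell cannot be told apart.

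**Figure D1:**
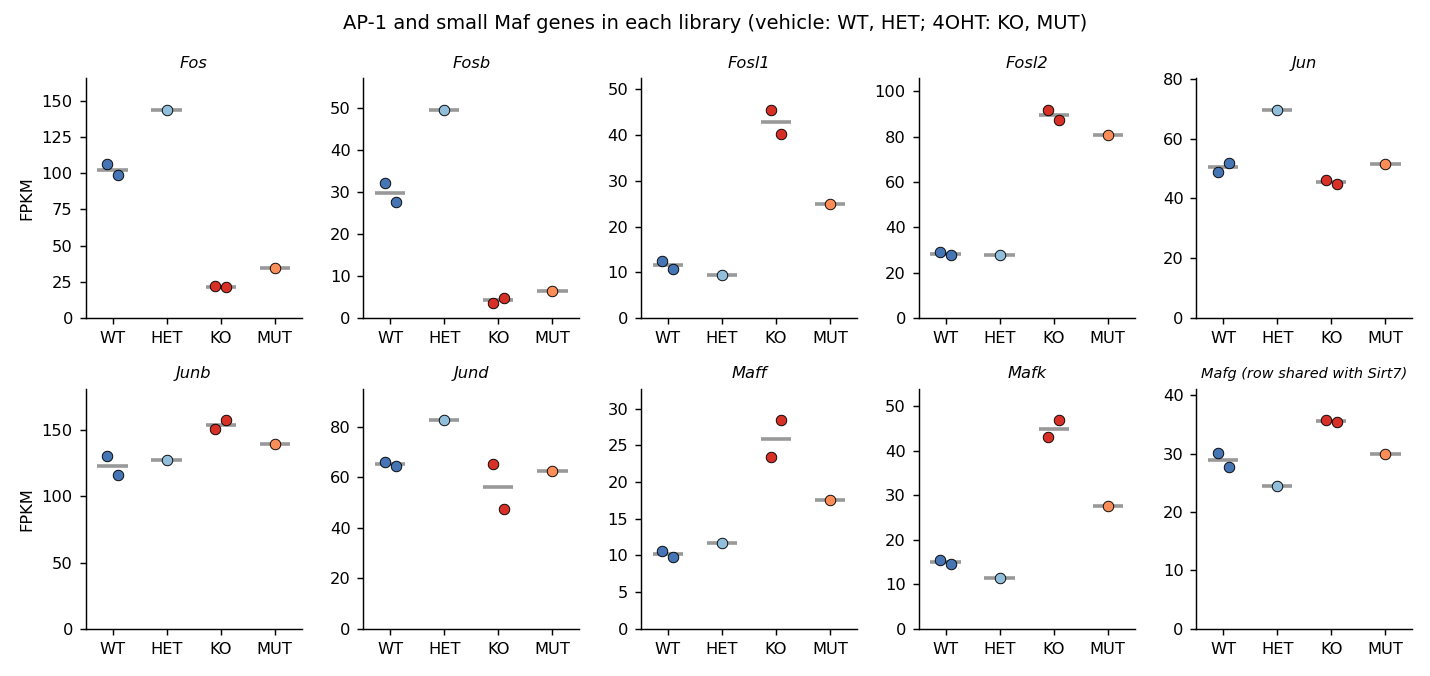
FPKM of each of the 10 genes in each library, on a linear axis for each gene, with 1 point per library grouped as WT, HET, KO and MUT. Fos and Fosb are lower in the 3 libraries given 4OHT than in the 3 given vehicle, Fosl1, Fosl2, Maff and Mafk are higher, and Jun, Jund and Mafg overlap.

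Fos, the founding member of the family, was at 106 and 98.8 FPKM in the WT libraries, 21.9 and 21.6 in KO, 143.7 in HET and 34.8 in MUT. Every vehicle library stood above every 4OHT library, the closest pair being 98.8 in WT against 34.8 in MUT. The KO mean of 21.8 ± 0.236 (SD, n = 2) was 4.70-fold below the WT mean of 102 ± 5.11 (SD, n = 2). On the log2 scale Fos fell by 2.18 (SE 0.095, adjusted p = 4.45e-08).

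Fosb, whose product is closest to FOS and is also spliced to the stable form known as delta FosB, gave 32.1 and 27.6 FPKM in WT, 3.69 and 4.81 in KO, 49.6 in HET and 6.37 in MUT. With Mafg read from the row it shares with Sirt7, Fosb had the lowest level of the 10 genes in KO and in MUT. Mean Fosb fell from 29.9 ± 3.19 FPKM in WT to 4.25 ± 0.794 in KO (SD, n = 2 each), or 7.03-fold. The fall in log2(FPKM + 1) was 2.56 (SE 0.13, adjusted p = 1.02e-07). FPKM here is one value per gene and does not separate the 2 splice forms.

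Fosl1 encodes FRA1, a FOS protein raised in migrating and mesenchymal cells. It was listed at 12.5 and 10.8 FPKM in WT, 45.5 and 40.2 in KO, 9.54 in HET and 24.9 in MUT. All 3 libraries given 4OHT were above all 3 given vehicle, with MUT between the KO and the vehicle values. Its mean rose 3.68-fold in KO, and its log2(FPKM + 1) rose by 1.79 (SE 0.11, adjusted p = 4.29e-07). Its opposite-strand neighbour Ccdc85b was higher in KO by 0.72 (adjusted p = 0.000342), from 14.4 to 24.4 FPKM, and the part of this overlap in the value of Fosl1 was not tested.

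Fosl2, encoding FRA2, was at 29.0 and 27.7 FPKM in WT, 91.9 and 87.5 in KO, 28.0 in HET and 80.7 in MUT. The vehicle libraries differed from each other by little more than 1 FPKM, and MUT came close to KO. The rise in KO was 3.17-fold in mean FPKM and 1.63 in log2(FPKM + 1) (SE 0.094, adjusted p = 2.79e-07). With Mafg read from the row it shares with Sirt7, Fosl2 went from the seventh of the 10 genes by level in WT to the second in KO and in MUT.

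The JUN genes supply the obligate partners of the FOS proteins, and their mean levels in WT and KO were within 1.25-fold of each other. Jun, the strongest activator of the JUN proteins, was listed at 48.8 and 52.0 FPKM in WT, 46.2 and 44.7 in KO, 69.7 in HET and 51.5 in MUT. The 2 treatments overlapped through the MUT library, and the KO difference of -0.14 (SE 0.095, adjusted p = 0.215) was not called.

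Junb, which often opposes Jun on growth genes, was the most abundant of the 10 genes in WT, KO and MUT. It was listed at 130.6 and 115.9 FPKM in WT, 150.8 and 157.4 in KO, 127.4 in HET and 139.9 in MUT. It was higher in KO by 0.32 (SE 0.10, adjusted p = 0.0185), a 1.25-fold rise that was no longer called without the second WT library (0.24, adjusted p = 0.178). Prdx2, a peroxiredoxin gene on the other strand, was at 403.4 FPKM in WT and 289.0 in KO, and fell by 0.48 (adjusted p = 0.0015).

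Jund, the JUN gene that is usually expressed steadily and at rest, gave 66.0 and 64.4 FPKM in WT, 65.3 and 47.3 in KO, 82.5 in HET and 62.4 in MUT. On the log2 scale the 2 KO libraries disagreed more than for any other member, with a mean of 56.3 ± 12.7 (SD, n = 2). The difference of -0.23 (SE 0.14, adjusted p = 0.179) was not called with both libraries, and reached -0.46 (adjusted p = 0.000723) without the first KO library and 0.0013 without the second, in fits whose spread comes from the WT pair alone.

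Among the small MAF genes, Maff and Mafk rose and Mafg moved little. Maff, a stress-induced member, was at 10.6 and 9.73 FPKM in WT, 23.3 and 28.4 in KO, 11.7 in HET and 17.5 in MUT. MUT lay between the vehicle libraries and KO. In KO Maff was 2.54-fold higher in mean FPKM and higher by 1.26 in log2(FPKM + 1) (SE 0.12, adjusted p = 7.17e-06).

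Mafk, a partner of NRF2 and of BACH1, was listed at 15.5 and 14.5 FPKM in WT, 43.0 and 46.8 in KO, 11.5 in HET and 27.6 in MUT. The 3 vehicle values stayed below the 3 values from 4OHT. The KO mean of 44.9 ± 2.69 was 2.99-fold the WT mean of 15.0 ± 0.698 (SD, n = 2 each). The difference of log2(FPKM + 1) was 1.52 (SE 0.099, adjusted p = 6.34e-07).

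Mafg has 2 rows. The row with the higher mean, which also names Sirt7, a deacetylase gene, held 30.1 and 27.6 FPKM in WT, 35.7 and 35.4 in KO, 24.5 in HET and 30.0 in MUT. This shared row was higher in KO by 0.29 (SE 0.097, adjusted p = 0.0247), and the call was lost without the second WT library (adjusted p = 0.161) or without the first KO library (adjusted p = 0.052). The row naming Mafg alone held 5.48 and 4.95 FPKM in WT and 4.13 and 4.82 in KO, a difference of -0.18 (adjusted p = 0.2) in the other direction. The rise of the shared row can therefore not be assigned to Mafg.

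The order of the members by level differed between the treatments. Mafg was placed by the row it shares with Sirt7, so its rank and the ranks below it depend on that row. In WT it ran Junb, Fos, Jund, Jun, Fosb, Mafg, Fosl2, Mafk, Fosl1 and Maff, and the libraries of Fosb, Mafg and Fosl2 overlapped, at 27.6 to 32.1 FPKM. In KO it ran Junb, Fosl2, Jund, Jun, Mafk, Fosl1, Mafg, Maff, Fos and Fosb, and Jun, Mafk and Fosl1 overlapped, at 40.2 to 46.8 FPKM. In HET Fos, at 143.7 FPKM, came ahead of Junb, and Fosl1 was last. In MUT Junb and Fosl2 came first, Fos was the fifth and Fosb was last.

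Summed within a family, the FOS genes had similar totals in WT and KO with a different composition, and a lower total in MUT than in HET. This grouping was chosen after the values were seen and is a description with no test. The 4 FOS genes summed to 180 and 165 FPKM in WT, 163 and 154 in KO, 231 in HET and 147 in MUT. Fos and Fosb supplied 76.9% and 76.7% of that sum in WT, 83.7% in HET, 15.7% and 17.1% in KO, and 28.0% in MUT. The ratio of Fosl1 and Fosl2 to Fos and Fosb was 0.300 and 0.304 in WT, 0.194 in HET, 5.36 and 4.83 in KO, and 2.57 in MUT.

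The JUN sum stayed close to level, at 239 ± 9.29 FPKM in WT, 256 ± 9.18 in KO (SD, n = 2 each), 279.5 in HET and 253.8 in MUT. Within it the share of Junb was 51.6% ± 2.35 in WT and 60.3% ± 3.98 in KO (SD, n = 2 each). The small MAF sum was 54.0 ± 3.06 FPKM in WT and 106 ± 6.05 in KO (SD, n = 2 each), 47.7 in HET and 75.2 in MUT. Mafk took 27.8% of the small MAF sum in WT, 42.2% in KO, 24.0% in HET and 36.8% in MUT. Mafg entered this sum by the row it shares with Sirt7, which supplied 53.4% of it in WT and 33.5% in KO. The row naming Mafg alone averaged only 5.21 FPKM in WT and 4.47 in KO. The small MAF sum and shares therefore depend on a row that cannot be assigned to Mafg.

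**Figure D2:**
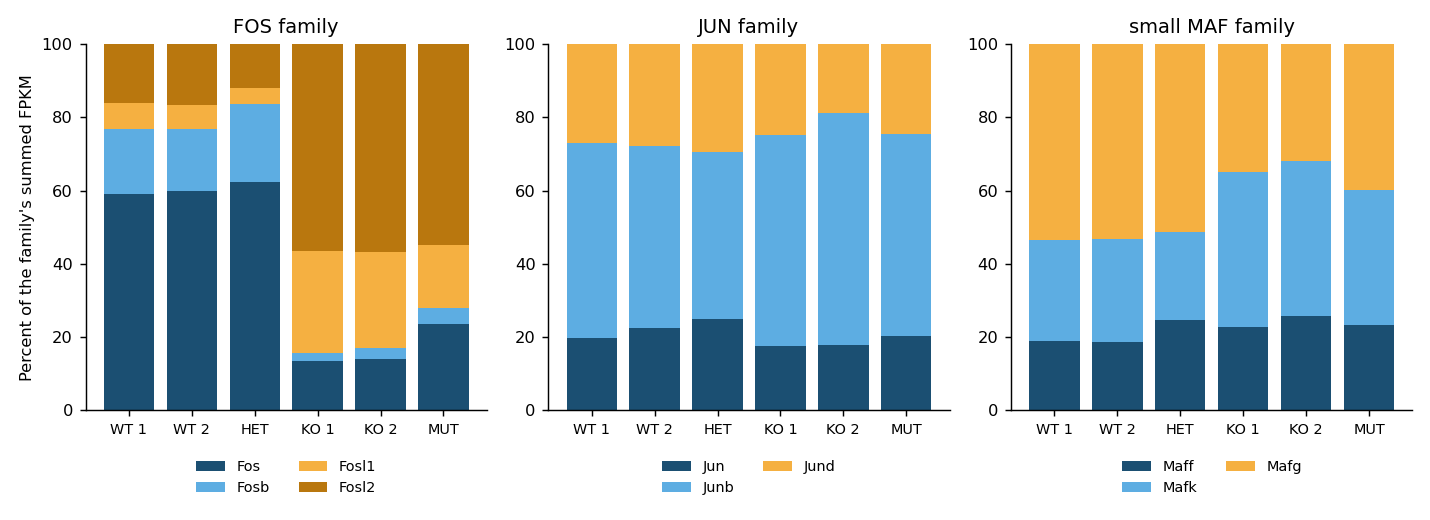
Percent of the summed FPKM of the FOS, JUN and small MAF genes that each gene supplied, in each of the 6 libraries. Each bar is scaled to its own family's sum in that library, so its height shows no level. Mafg is read from the row it shares with Sirt7. Fos and Fosb fill most of the WT bars of the FOS family, while Fosl1 and Fosl2 fill most of its KO bars.

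MUT and HET gave the same picture with 1 library a side, so the difference has no replicate check. In MUT Fos was 4.13-fold and Fosb 7.80-fold below HET, and Fosl2 was 2.88-fold, Fosl1 2.61-fold and Mafk 2.41-fold above it. These 5 genes were the members at 2-fold, 3 higher and 2 lower, beside 13.7% of all tested genes, 4.93% higher and 8.77% lower. Maff was 1.495-fold higher, and its log2(FPKM + 1) was higher by 0.54. Jun, Junb, Jund and Mafg differed by -0.43, 0.13, -0.40 and 0.28.

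The signs of KO against WT and of MUT against HET, which share no library, were the same for all 10 genes, with Mafg on its shared row, beside 82.1% of all tested genes. On the row that names Mafg alone the signs were opposite (-0.18 and 0.08). Changes of at least 2-fold in the same direction in both were found for 5 of the 10 and for 9.67% of all tested genes. A limma fit that takes its spread from the WT and KO pairs, in which HET and MUT are assumed to vary like those groups, called 7 of the 10 in MUT against HET and 43.3% of all genes. The calls were Fos, Fosb and Jun (adjusted p = 0.0254) among the lower and Fosl1, Fosl2, Mafk and Maff (adjusted p = 0.0225) among the higher.

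**Figure D3:**
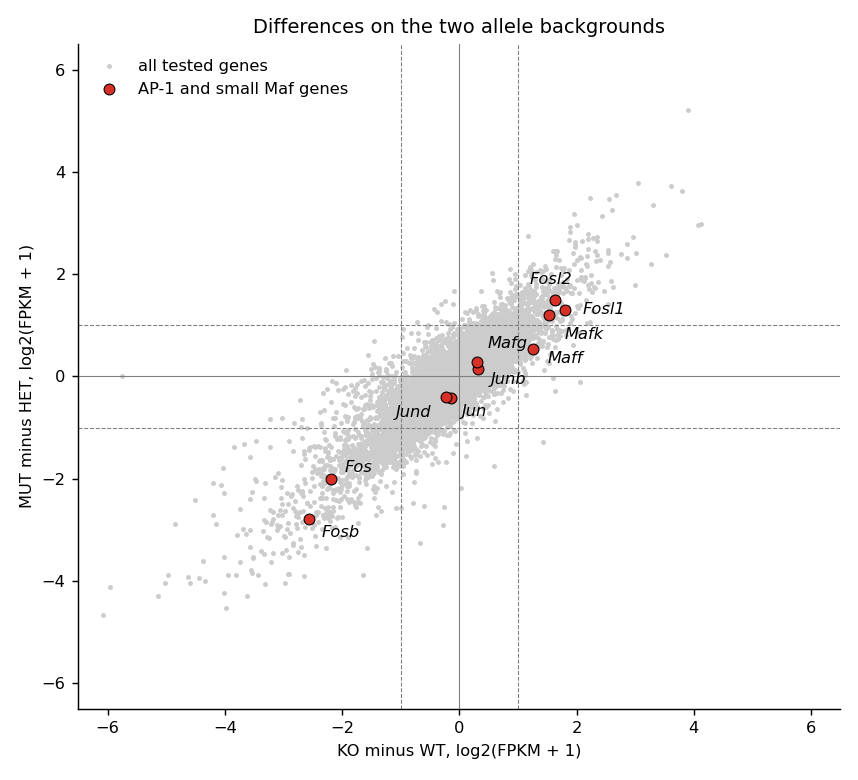
Log2(FPKM + 1) difference of KO minus WT (horizontal) against MUT minus HET (vertical) for all 12266 tested genes in grey and the 10 genes in red, with dashed lines at 2-fold. Fos and Fosb lie past both lines at the lower left, Fosl1, Fosl2 and Mafk past both at the upper right, and Maff passes only that of KO minus WT.

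The difference between the 2 effects, KO against WT and MUT against HET, was called for none of the 10 genes, beside 4.01% of all genes (3.07% higher, 0.946% lower). At an unadjusted p under 0.05 there were 2 members, Maff and Fosl1, beside 2118 of all 12266 tested genes. The Maff effect was smaller by 0.72 in MUT against HET (SE 0.20, unadjusted p = 0.00492, adjusted p = 0.0834), and it was -0.85 (adjusted p = 0.0018) without the first KO library, a fit whose spread comes from the WT pair alone. For Fosl1 the difference was -0.49 (SE 0.19, unadjusted p = 0.0276, adjusted p = 0.214). The difference for Fos was 0.17 (SE 0.16, adjusted p = 0.654) and that for Fosb -0.22 (SE 0.22, adjusted p = 0.664).

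Under vehicle, HET held more Fos, Fosb and Jun than WT. Of the 10 genes, 0 reached 2-fold, beside 2.47% of all tested genes (0.75% higher, 1.72% lower). The differences were 0.72 for Fosb, 0.49 for Fos, 0.46 for Jun and 0.34 for Jund, and Mafk and Fosl1 were lower by -0.36 and -0.26. With the pooled spread, Fosb (adjusted p = 0.0138), Fos (adjusted p = 0.021) and Jun (adjusted p = 0.0266) were called, beside 13.9% of all genes. HET was above both WT libraries for each of these 3 genes, which adds no support, since the same libraries gave the calls. It was also above both for Jund and Maff, which were not called.

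After 4OHT, MUT lay nearer to the vehicle libraries than KO did for several members. None of the 10 reached 2-fold between MUT and KO, beside 2.41% of all genes (1.43% higher, 0.978% lower). Fos was higher in MUT by 0.65 and Fosb by 0.50, and Fosl1, Mafk and Maff were lower by -0.75, -0.68 and -0.53. With the pooled spread 4 of the 10 were called, Fos (adjusted p = 0.00509), Fosl1 (adjusted p = 0.00559), Mafk (adjusted p = 0.00552) and Maff (adjusted p = 0.0385), beside 11.3% of all genes. Fosb was not (adjusted p = 0.0711). These comparisons share the KO or WT libraries with the one above.

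With all libraries in one fit, treatment beside allele, 6 members were higher and 2 lower with 4OHT, beside 57.4% of all genes called, 29.2% higher and 28.2% lower. The differences were -2.63 for Fosb, -2.13 for Fos, 1.63 for Fosl1, 1.58 for Fosl2, 1.41 for Mafk and 1.02 for Maff. Junb (0.26, adjusted p = 0.0391) and the shared Mafg row (0.29, adjusted p = 0.0155) were called at small size, and Jun (-0.24, adjusted p = 0.0538) and Jund (-0.28, adjusted p = 0.0787) were not. Without the second WT library Junb (adjusted p = 0.175) and Mafg (adjusted p = 0.0748) were no longer called. The 3 vehicle and the 3 4OHT libraries did not overlap for 7 of the 10 genes, 5 higher and 2 lower with 4OHT, beside 59.9% of all tested genes (30.6% higher, 29.3% lower).

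Other genes that feed or share AP-1 dimers were read from lists, and Atf3 and Jdp2 had the largest rises among the dimer partners. For comparison with this and the following lists, the median KO difference over all tested genes was 0.02. Of all tested genes 57.7% were called in KO against WT, 29.5% higher and 28.2% lower. Of 7 further dimer partners 4 were tested, 3 rose and 0 fell, with a median of 0.87. Atf3, a stress-induced partner of JUN, was at 3.46 and 3.56 FPKM in WT, 41.4 and 43.6 in KO, 4.03 in HET and 22.2 in MUT, and rose by 3.27 in KO (adjusted p = 5.76e-09). Jdp2, a JUN dimerization protein that represses AP-1 sites, was at 19.0 and 16.2 FPKM in WT, 44.7 and 53.0 in KO, 14.2 in HET and 47.6 in MUT, a rise of 1.42 (adjusted p = 3.42e-06). Atf2 rose by 0.31 (adjusted p = 0.035), Atf7, on a row shared with Npff, differed by -0.00, and Batf, Batf2 and Batf3 stayed under 1 FPKM in every library.

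Of 6 listed partners of the small MAF proteins, 4 were tested, 2 rose, 0 fell and 2 were not called, with a median of 0.26. Nfe2l1, encoding NRF1, rose by 0.93 (adjusted p = 1.59e-05) from 84.8 to 162 FPKM. Nfe2l2, which encodes NRF2, the regulator of antioxidant genes, rose by 0.54 (adjusted p = 0.000881) from 42.4 to 61.9 FPKM. The repressor gene Bach1, at 10.6 and 10.6 FPKM in WT and 9.94 and 10.9 in KO, differed by -0.02, and Nfe2l3 by -0.05. In MUT against HET Bach1 differed by 0.42 and Nfe2l3 by -1.33, the latter from 2.66 FPKM in HET to 0.455 in MUT. Nfe2 and Bach2 did not pass the filter.

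The large Maf proteins do carry an activation domain. Maf was at 14.6 and 15.3 FPKM in WT, 33.4 and 26.4 in KO, 10.7 in HET and 23.1 in MUT. All 3 values from 4OHT were above the vehicle values, and Maf rose by 0.94 in KO (adjusted p = 7.6e-05). Mafa and Nrl did not pass the filter.

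Most upstream regulators were not called. Fos is switched on by SRF with MRTF or ternary complex factors, and by CREB at its cAMP response element. Of these 7 factors, 2 were higher in KO, 0 lower and 5 not called, with a median of 0.28. The 2 were Creb1, encoding CREB (0.54, adjusted p = 0.00673), and Mkl2, an MRTF gene (0.46, adjusted p = 0.00497). In MUT against HET Creb1 differed by 0.65, and Mkl2 by -0.26, in the other direction. Srf itself, named after its value was seen, was at 20.6 FPKM in WT and 19.1 in KO (-0.10, adjusted p = 0.432). Of 20 MAP kinase genes 19 were tested, 5 rose, 2 fell and 12 were not called (median 0.08). The p38 delta gene Mapk13 rose by 1.06, Map2k1, encoding MEK1, rose by 0.81, and Map2k6, an activator of p38, fell by 0.88.

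Among the MAP kinase phosphatases, which switch these kinases off, 9 of 10 were tested, 5 rose and 1 fell (median 0.40). Dusp6, an ERK phosphatase that ERK signalling itself induces, fell by 1.12 (adjusted p = 9.75e-06), from 39.1 ± 3.62 to 17.5 ± 1.27 FPKM (SD, n = 2 each). Dusp10, a JNK and p38 phosphatase, rose by 1.11 and Dusp8 by 0.98, both from low levels of 2.75 and 0.967 FPKM in WT.

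The other immediate early genes divided. Of 16 listed, 14 were tested, 8 rose, 5 fell and 1 was not called (median 0.32). The falls were Egr3 (-1.54), Arc (-1.43), Ier2 (-1.13), Egr1 (-1.03) and Egr2 (-0.72). Egr1, a zinc finger factor induced by the same signals as Fos, was at 203.0 and 178 FPKM in WT, 104 and 82.1 in KO, 255 in HET and 93.8 in MUT, and Egr2 and Egr1 were named after their values were seen. Ier2 was at 88.6 and 81.6 FPKM in WT, 39.7 and 36.9 in KO, 101.9 in HET and 37.1 in MUT. As with Fos and Fosb, HET was the highest library for Egr1, Egr2, Egr3 and Ier2, but not for Arc, which was at 10.9 FPKM in HET against 13.8 and 11.1 in WT. The largest of the 8 rises, also named after their values were seen, were Klf6 (1.13, adjusted p = 7.89e-06) and Ier5 (0.998, adjusted p = 8.48e-06).

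The AU-rich element binding proteins control the decay of short-lived messengers such as that of Fos. All 6 were tested, 1 rose, 4 fell and 1 was not called (median -0.51). Hnrnpd, encoding AUF1, fell by 0.77 (adjusted p = 0.000196), Zfp36l1 by 0.72 (adjusted p = 0.000197) and Khsrp by 0.65 (adjusted p = 0.00286). Decay itself was not measured.

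**Figure D4:**
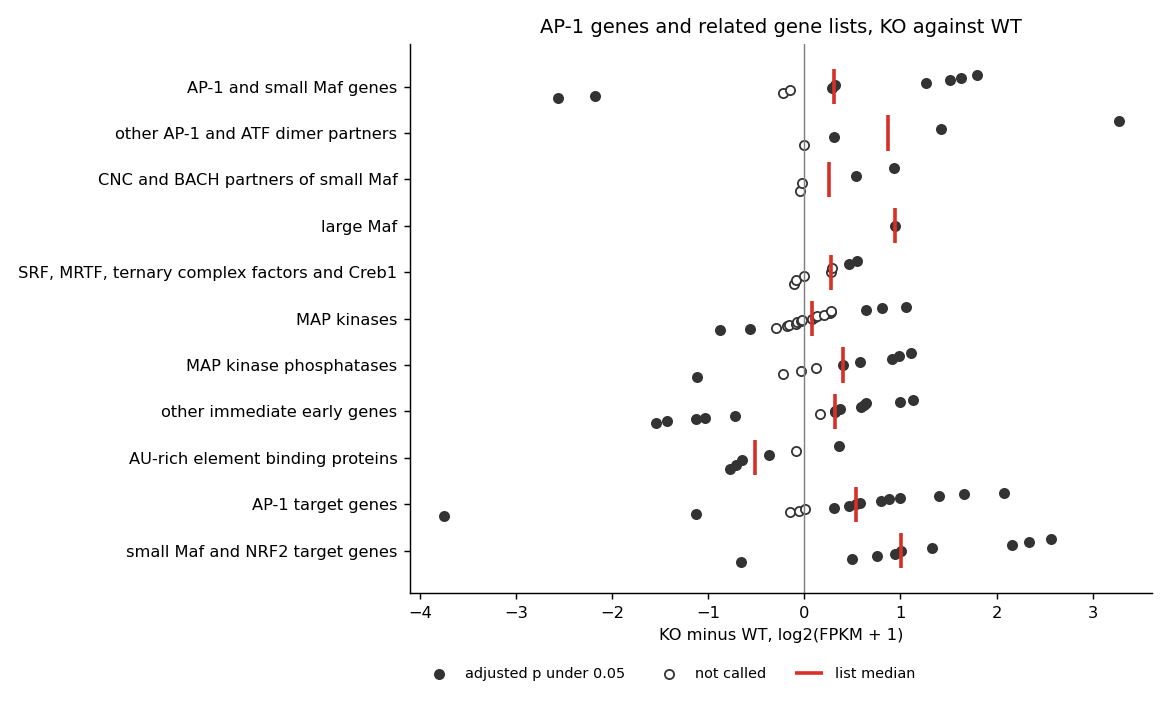
Log2(FPKM + 1) difference of KO minus WT for every tested gene of the 10 members and of each gene list, 1 point per gene, filled where the adjusted p is under 0.05, with a red bar at the list's median. The members lie on both sides of 0, while all but G6pdx of the small Maf and NRF2 targets and most AP-1 targets lie to the right.

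Of 19 textbook AP-1 target genes 15 were tested, 10 rose, 2 fell and 3 were not called, with a median of 0.54. They did not move as one group. Mmp3, the stromelysin gene whose promoter carries a classic AP-1 site, had the largest change of the list, from 441 and 404 FPKM in WT to 31.7 and 29.2 in KO, and fell by 3.75 (adjusted p = 2.83e-09). Il6, an inflammatory cytokine gene, rose by 2.08 (adjusted p = 1.88e-07) from 1.501 to 9.57 FPKM. Ccl2, a chemokine gene, rose by 1.66 (adjusted p = 3.89e-07) from 71.0 to 227 FPKM. In MUT against HET the same 3 genes differed by -3.64, 1.94 and 1.58. For 3 other targets, named after their values were seen, the KO and MUT effects differed. Mmp13, a collagenase gene, rose in KO (0.58) and was lower in MUT than in HET (-0.51), Plaur, the urokinase receptor gene, was higher by 1.40 and 0.60, and the matrix gene Tnc differed by -0.15 and 0.57. These genes have other regulators too, and which of them AP-1 binds here was not measured.

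All 9 targets of small MAF with NRF2 were tested, 8 rose and 1 fell, with a median of 1.002. Hmox1, the heme oxygenase gene, was at 131 and 116 FPKM in WT, 710.0 and 760.4 in KO, 92.7 in HET and 440.5 in MUT, and rose by 2.57 (adjusted p = 2.7e-08). Slc7a11, the cystine transporter gene, rose by 2.34 and Txnrd1, encoding thioredoxin reductase, by 2.16. The fall was that of G6pdx, of the pentose phosphate pathway (-0.66), named after its value was seen.

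Cell type markers moved in the same libraries, and their part in the AP-1 results was not tested. Fibroblast markers were present in every library: the 12 summed to 4619 to 5197 FPKM in the vehicle libraries, 1068 and 1142 in KO and 2332 in MUT, and 11 of 12 fell in KO, 0 rose and 1 was not called. For 8 of the 12 the KO and MUT effects differed in the limma test, beside 4.01% of all tested genes. The 12 pluripotent cell markers all fell, from a sum of 596 to 744 FPKM with vehicle to 18.3 and 34.7 in KO and 50.7 in MUT. They include Sox2 and Pou5f1, encoding Oct4, whose values may hold RNA of the OSKM factors, which was not separated. Pou5f1 alone was at 222 and 175 FPKM in WT and 272 in HET. Of 10 epithelial markers 9 fell and 1 rose, and their sum was 171 to 242 FPKM with vehicle and 39.7 to 46.8 with 4OHT. The 3 tested of 5 keratinocyte markers fell (127 to 177 FPKM with vehicle, 16.0 to 33.2 with 4OHT). Of 6 endothelial markers, which summed to 4.93 to 7.74 FPKM in every library, 4 were tested, 1 rose and 3 fell. Of 7 macrophage markers 4 were tested, 2 fell and 2 were not called, with a sum of 660 to 815 FPKM with vehicle and 442 to 457 with 4OHT. Most of that sum was the row that Cd68 shares with Eif4a1 and Senp3, and the defining markers Ptprc, Csf1r and Adgre1 did not pass the filter.

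The genes most like each strongly changed member were found by the Euclidean distance over the 6 libraries, in log2(FPKM + 1) centred on each gene's mean, over 8308 genes whose mean reached 5 FPKM. Rows naming several genes and small RNA, predicted and LOC genes were left out. The nearest genes are given for each member. For Fos these were Ccnf (distance 0.197) and Cks2 (0.202), both cell cycle genes, and for Fosb they were Zbtb32 (0.372) and Jarid2 (0.382). Fosl1 was nearest to Ccrn4l (0.224) and Chrnb1 (0.320), and Fosl2 to Flt4 (0.122) and Wars (0.183). Maff was nearest to Ttc39b (0.0877) and Rps6ka2 (0.126), and Mafk to Ccrn4l (0.254) and Ajuba (0.255). Between members the distance was 0.360 for Fosl1 and Mafk, 0.548 for Fosl1 and Fosl2 and 0.707 for Fos and Fosb. Each had nearer genes outside the family, but with 8308 candidates against a few members this says little about likeness within it. With 6 libraries in 4 groups, these distances describe the groups' levels and little else.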

How the data were processed

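Total RNA depleted of ribosomal RNA was sequenced from 6 libraries, per the labels' protocols. TopHat2 2.1.1, Cufflinks 2.2.1, Bowtie2 2.3.0 and the genome names mm10 and GRCm38 stand, with no roles, in the submitters' processing notes. The annotation and the use of strand were not given in the sources used here. Each file holds, per the file headers, the authors' FPKM for every gene row, written with decimal commas, and so no count test was applied.

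Rows without a gene name (1021 of 24879, 8.26% to 14.2% of the FPKM of a library) were left out. A symbol on several rows was taken from the row with the highest mean, and 561 rows name several genes.

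Values were analysed as log2(FPKM + 1), which understates the change of low genes, with limma 3.58.1 in R 4.3.3 (trend, two-sided, Benjamini-Hochberg adjusted over 12266 genes, called under 0.05). KO against WT used those 4 libraries, while 4OHT against vehicle and the comparison of the KO effect with the MUT effect used all 6. The other comparisons have 1 library on a side and are given first as 2-fold differences without a test, and then with limma under a spread pooled from the WT and KO pairs. On simulated data the KO against WT fit found 100% of the genes given a log2 change of 1, with 13 false calls, and the test of KO against MUT effects found 83%, with 9. The simulated noise was normal, with a spread shared by genes of similar level and by all groups, and most genes were left unchanged. These shares therefore check the fits and do not tell what share of real changes was found.

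The members and lists were chosen with earlier results of these data known. Genes named are the members; the genes of the dimer partner, CNC and BACH, and large Maf lists; the 3 called genes of every other list with the largest KO difference; and the 2 genes nearest to each member changed at least 2-fold. Gene positions are from GENCODE on GRCm38, and promoter letters from RefSeq on GRCm38.p6. Alternatives changed the pseudocount, filter, scaling, row choice, trend, libraries and replicate block. Some list genes are not reported here and were left out of the list counts.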

Additional observations from a re-analysis of the deposited data

Results flagged for a closer look

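The KO and MUT effects differed, by the limma test of the difference itself, for no member and for 5 genes of the related lists. These were 1 of 4 tested dimer partners, 1 of 9 MAP kinase phosphatases and 3 of 15 AP-1 targets. None was called among CNC and BACH partners (4 tested), large Maf (1), SRF and related factors (7) or MAP kinases (19). None was called among other immediate early genes (14), AU-rich element binding proteins (6) or small MAF and NRF2 targets (9). The rise of Atf3, the JUN partner, was smaller in MUT against HET (2.205) than in KO against WT (3.27), a difference of -1.07 (SE 0.17, adjusted p = 0.00866). Dusp1, a MAP kinase phosphatase gene, was higher by 0.91 in KO against WT and differed by -0.08 in MUT against HET, a difference of -0.99 (adjusted p = 0.00956). The differences of the AP-1 targets were -1.09 for Mmp13 (adjusted p = 0.0159), -0.80 for Plaur (adjusted p = 0.0267) and 0.72 for Tnc (adjusted p = 0.0371). Among the cell type markers the test called 8 of 12 fibroblast, 3 of 12 pluripotent cell, 1 of 10 epithelial, 1 of 4 tested macrophage and 1 of 3 tested keratinocyte markers. Of all tested genes the same test called 4.01%, and with no filter on low values it called 0 of 17762. These values rest on 1 HET and 1 MUT library, which are assumed to vary like WT and KO.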

How the results depend on the processing

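Among called members the sign changed for Mafg alone, on the row that names only Mafg, an alternative chosen after seeing the data (-0.18 in KO against WT, adjusted p = 0.2; -0.10 in 4OHT against vehicle, adjusted p = 0.469). In KO against WT the log2 difference ran from -2.23 to -2.13 for Fos, -2.79 to -2.40 for Fosb, 1.70 to 1.89 for Fosl1, 1.55 to 1.66 for Fosl2, 1.13 to 1.40 for Maff and 1.46 to 1.58 for Mafk over 13 settings, all called (highest adjusted p = 0.00878). The Junb call was lost with no filter (adjusted p = 0.0581), and the Mafg call with quantile normalization (adjusted p = 0.0861) and with summed rows (adjusted p = 0.0671). In 4OHT against vehicle, quantile normalization ended the Junb call (adjusted p = 0.0558) and gave those of Jun (adjusted p = 0.0148) and Jund (adjusted p = 0.038). Scaling moved the median of all genes by less than 0.1.

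In the test of the KO effect against the MUT effect, the 492 genes called became 0 of 17762 with no filter, with 2814 at an unadjusted p under 0.05, and ran from 286 to 1192 when 1 library was left out; the members called ran from 0 to 1. With a pooled spread, the genes called were 5309 in MUT against HET, 1699 in HET against WT (members 3) and 1389 in MUT against KO (members 4), against 1681, 303 and 296 at 2-fold. At a pseudocount of 0.1 the last 2 were 610 and 680. A KO against WT fit without 1 library takes its spread from the other pair alone. The replicate numbers were not taken to pair the libraries, since there are 2 pairs and the correlation of their deviations was 0.18; with a replicate block 8 members and 7959 genes were called in KO against WT, against 8 and 7080. The depth is an estimate, so no counting interval is given.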
